A study of Mus musculus with 8 samples.

Results

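The 2 kinds of mammary cell compared here both carried a DNp63 transgene and were sorted into the basal or the luminal gate. All 4 libraries labelled as DNp63 were used, 2 from each gate, of 8 libraries in the series, and every gene in the deposited table was considered. The libraries were chosen by their labels and not by any measured value. DNp63 mice carried K8rtTA, TetO-Cre and Rosa26-ΔNp63-IRES-GFP, and GFP-positive cells were taken from them. In this design the Krt8 promoter, active in luminal cells, drives a doxycycline-dependent transactivator, which turns on Cre. Cre in turn switches on ΔNp63 together with GFP, so GFP marks cells in which the Krt8 promoter was active and the descendants of such cells. The comparison asks how such cells in the basal gate differ in expression from such cells in the luminal gate.

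Cells of both gates were CD24+ and lacked CD45, CD31 and CD140a, surface proteins of blood cells, endothelium and fibroblasts. The luminal gate held CD29low cells and the basal gate CD29high cells, where CD29 is the integrin encoded by Itgb1. The mice were female, with mixed genetic backgrounds. The sources used here give neither their age nor the schedule of doxycycline for the DNp63 mice. The other 4 libraries came from CD1 mice without the transgene, sorted into the same gates, 2 libraries per gate. They serve only as a measure of the usual gate difference. Strain, transgene and sorting for GFP cannot be told apart in any contrast with them. Each luminal library was made from 40000 cells and each basal library from 5000, so cell number and gate cannot be told apart. The labels do not say that the 2 libraries of a group came from separate mice, so p-values measure the spread between libraries, which may be technical.

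The mammary epithelium has an outer basal layer, which holds contractile myoepithelial cells on a basement membrane, and an inner luminal layer, which lines the duct, senses hormones and secretes milk. p63, encoded by Trp63, is a transcription factor of the basal layer of stratified epithelia, and ΔNp63 is the isoform that predominates there. Luminal cells express the keratins Krt8 and Krt18, and basal cells express Krt5 and Krt14.

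Values are reads per 20000000, as deposited, and are quoted in the order of replicate 1 and replicate 2. The DNp63 luminal libraries held 7206700 and 5111658 reads and the DNp63 basal libraries 4745396 and 4136986, so 1 read was worth 2.78 to 4.83 units in these 4 libraries. A difference is log2 of the basal level over the luminal level after TMM scaling and addition of 8, with its standard error (SE), from 1 limma fit to the 8 libraries. A gene is called higher or lower where its p, adjusted over the 16900 genes tested by the Benjamini-Hochberg method, is under 0.05. Gate accounted for the first principal component (76% of the variance), and the second (9.7%) separated DNp63 from CD1 libraries.

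A large share of the transcriptome separated the gates in DNp63 mice. Of 16900 genes tested, 8323 (49.2%) were called, 4201 (24.9%) higher and 4122 (24.4%) lower in the basal gate, and 5547 (32.8%) were called with at least a 2-fold difference. The count of lower genes fell to 2320 without DNp63 luminal replicate 1 and to 2625 without DNp63 luminal replicate 2. Both basal libraries lay above both luminal ones for 6030 genes (35.7%) and below them for 7251 (42.9%). The median difference over all tested genes was -0.077. The shares of 24.9% higher and 24.4% lower belong beside the counts of every list that follows.

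Trp63 itself (chr16:25683763-25892102, plus strand, GRCm38) was expressed in both gates of these mice. Its values were 1297 and 1460 in the DNp63 luminal libraries and 8088 and 8306 in the DNp63 basal libraries. The basal libraries were the higher pair with no overlap, by 2.60 ± 0.18 (SE, limma adjusted p = 1.0e-05). In CD1 mice Trp63 read 61 and 45 in the luminal gate and 5457 and 7079 in the basal gate, a difference of 6.67. The interaction, the DNp63 gate difference minus the CD1 gate difference, was -4.08 ± 0.26 (limma adjusted p = 0.00059). Luminal libraries of DNp63 mice thus held more Trp63 reads than CD1 luminal libraries did, while the basal libraries of both strains lay at 5457 or above. Reads from the transgene and from the endogenous gene are counted together as Trp63, so they cannot be told apart here.

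The 5 marker genes of the comparison separated the gates, as the plot of lineage genes by library shows. They came with the comparison, which was chosen with earlier results of these data known, so their separation is a description. Krt5 (chr15:101707070-101712898, minus strand), the basal keratin, read 167 and 157 in the luminal libraries and 13479 and 14973 in the basal libraries. Acta2 (chr19:34241090-34255590, minus strand), smooth muscle actin, read 619 and 646 in the luminal libraries and 50512 and 56442 in the basal ones. Krt5 and Acta2 were each higher in the basal gate by 6.41, with SEs of 0.18 and 0.17 (limma adjusted p = 1.5e-07 for each). Dmbt1, Fcgbp and Foxj1, described below, were the markers on the luminal side, and each was lower in both basal libraries than in both luminal ones. Itgb1, the protein used for the gate, read 10069 and 9516 in the luminal gate and 15628 and 15562 in the basal gate, higher by 0.70 ± 0.11. Cd24a, which encodes the other gating protein, read 26118 and 29173 in the luminal gate and 4118 and 4917 in the basal gate, and fell by 2.58 on the log2 scale.

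**Figure D1:**
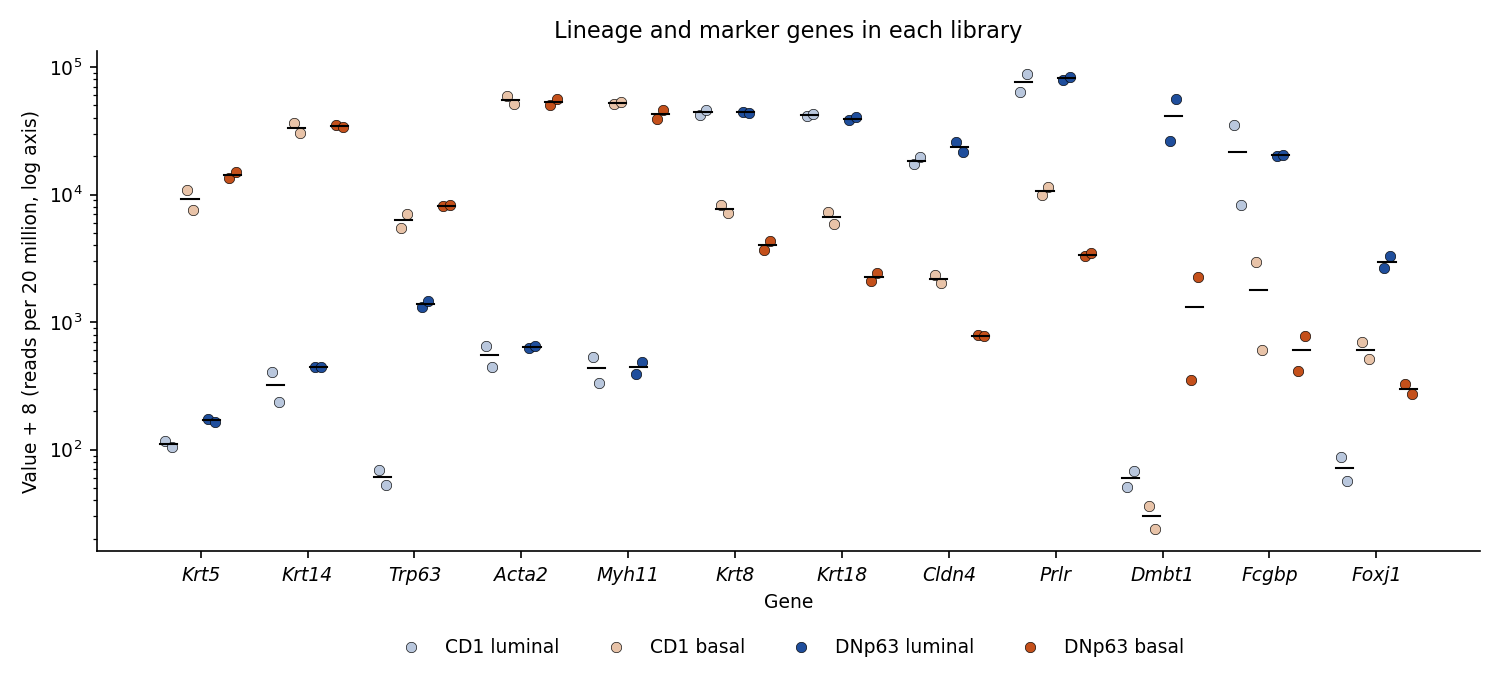
Each point is 1 library, and the horizontal line is the mean of the 2 libraries of a group. The vertical axis gives reads per 20000000 plus 8 on a log scale for 12 genes; in DNp63 mice Krt5, Krt14, Trp63, Acta2 and Myh11 lay higher in the basal libraries and the other 7 genes lay higher in the luminal libraries.

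Marker genes of other cell types were also higher in the basal gate, and these values belong beside every list that follows. Of 18 endothelial genes, 17 were higher in the DNp63 basal libraries and none was lower, with a median difference of 4.94. Summed over the list, endothelial values were 4549 and 4074 in the luminal libraries and 74463 and 54986 in the basal libraries. Pecam1, which encodes the CD31 protein sorted against, read 331 and 380 in the luminal gate and 7637 and 4980 in the basal gate (4.12 ± 0.21, limma adjusted p = 2.4e-06). Kdr, the endothelial VEGF receptor, read 178 and 122 in the luminal gate and 12122 and 8446 in the basal gate. Both basal libraries exceeded both luminal ones for Pecam1 and for Kdr, and the CD1 basal libraries had 8163 and 7669 for Pecam1. In bulk RNA, more cells of a type and more RNA per cell cannot be told apart.

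Markers of pericytes, adipocytes and fibroblasts moved with the gate as well. Among 13 pericyte genes 10 were higher and 2 lower, and Rgs5 rose from 195 and 243 to 8451 and 6933. Among 13 adipocyte genes 11 were higher and 0 lower; Cd36, a fatty acid transporter also present in capillary endothelium, rose from 492 and 349 to 35475 and 24709, while Adipoq, a defining adipocyte gene, stood at 6 and 0 in the luminal and 68 and 78 in the basal libraries. With a minimum value of 200 in place of 40, 7 adipocyte genes were tested and 6 called higher. The summed adipocyte list was 1726 and 1349 against 66100 and 44631, and the summed pericyte list was 13826 and 12017 against 26373 and 23779.

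Fibroblast genes were all above the luminal level in both basal libraries (16 of 16, beside 35.7% of all genes), but 8 passed the test. That count was 14 without either CD1 luminal library, 4 without DNp63 luminal replicate 2, 5 without DNp63 basal replicate 1 and 4 without DNp63 basal replicate 2, and it was 15 in a fit to the 4 DNp63 libraries alone and with the replicate number as a block. The summed list was 24513 and 17488 in the luminal libraries and 90356 and 118126 in the basal libraries. CD1 libraries were more uneven, at 10664 and 49476 in the luminal gate and 25026 and 59707 in the basal gate. Pdgfra, which encodes the CD140a protein sorted against, read 397 and 251 against 1741 and 2978 (2.85 ± 0.74, limma adjusted p = 0.012), with adjusted p = 0.071 without DNp63 luminal replicate 2 and 0.085 without DNp63 basal replicate 2.

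Immune marker genes had low values in both gates. The immune list passed the filter with 9 of 18 genes, of which 3 were higher and none lower, beside 24.9% and 24.4% of all genes. Ptprc, which encodes CD45, read 48 and 71 in the luminal gate and 30 and 126 in the basal gate, so the libraries overlapped, and it was not called (0.13 ± 0.58). The summed immune list was 936 and 1004 against 1387 and 1622. One red cell gene of 7, Alas2, passed the filter, and it was not called. How much these cell types add to the differences of the epithelial lists was not tested.

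**Figure D2:**
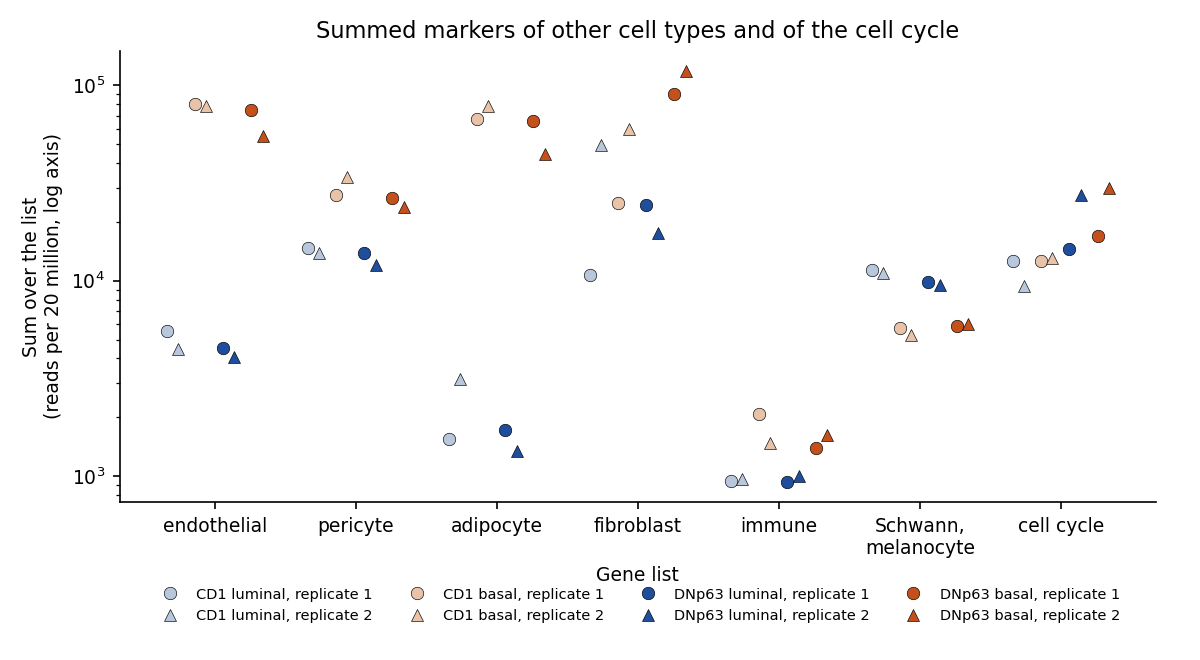
Points give the sum over a gene list in each library, in reads per 20000000 on a log axis; circles are replicate 1 and triangles replicate 2. Endothelial, pericyte and adipocyte sums were higher in all 4 basal libraries than in all 4 luminal libraries, and the cell cycle sum was highest in replicate 2 of each DNp63 gate.

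Basal identity genes were higher throughout the list in the basal gate. All 26 listed genes were tested and all 26 were called higher, with a median difference of 3.81 beside -0.077 for all genes. Differences ran from 0.38 for Itgb4 to 6.41 for Krt5. Itgb4, the integrin subunit of hemidesmosomes, read 4752 and 4265 against 5863 and 5652, the smallest difference of the list. Krt14, the keratin partner of Krt5, read 433 and 435 in the luminal libraries and 35298 and 33798 in the basal libraries. Among protein-coding genes, mitochondrially encoded ones left out, Krt14 and Krt17 were among the 8 most abundant transcripts of the basal gate per kilobase of exon. They stood at 19652 and 15569 units per kilobase.

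The transcriptional regulators Irx4, Bcl11b and Id4 had low values in the luminal gate. Irx4 read 28 and 16 in the luminal libraries and 2453 and 2418 in the basal libraries, higher by 6.40 ± 0.32. Bcl11b, a zinc-finger factor of basal progenitors, read 14 and 8 against 1341 and 1533. Id4, an inhibitor of basic helix-loop-helix factors, read 28 and 51 against 3043 and 3486. None of the 3 overlapped between gates, and each of their luminal values rests on few reads. Snai2, the zinc-finger repressor known as Slug, read 31 and 24 against 1728 and 1891, and Lgr5, the R-spondin receptor, 98 and 67 against 4852 and 3472.

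Beside Trp63, Cdh3 was the basal identity gene whose gate difference departed from that of CD1 mice by the interaction test. Cdh3, which encodes P-cadherin, read 408 and 294 in the DNp63 luminal libraries and 4219 and 4907 in the basal ones, a difference of 3.71 ± 0.22. CD1 luminal libraries had 82 and 56, and the interaction was -2.16 ± 0.31 (limma adjusted p = 0.034). Both DNp63 luminal libraries lay above both CD1 luminal libraries. Without DNp63 basal replicate 2 the interaction was called for 4 genes in all, Trp63, Foxj1, Cfap54 and Moxd1, so that of Cdh3 and every other interaction named below lost its call there. Krt15 read 325 and 376 against 4742 and 5831, and its interaction of 1.72 was not called.

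The contractile programme of myoepithelial cells was the list with the largest median among the epithelial ones. Of 22 genes 20 were higher and 1 lower, with a median of 4.76. Myh11, smooth muscle myosin, read 386 and 482 in the luminal gate and 39057 and 46363 in the basal gate, higher by 6.63 ± 0.21 (limma adjusted p = 3.5e-07). Mylk, the kinase that activates that myosin, read 164 and 216 against 15582 and 19614. Cnn1, which encodes calponin, read 87 and 141 against 7692 and 8669, and Oxtr, the oxytocin receptor that triggers milk ejection, 375 and 380 against 18949 and 20996. In each of these genes the lowest basal library exceeded the highest luminal library many-fold. Per kilobase of exon Acta2 stood above Krt14 in the basal gate, at 24352 units per kilobase.

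The exceptions in that list were few. Srf, the transcription factor that acts on contractile genes with its cofactor myocardin, read 2157 and 1769 in the luminal gate and 2276 and 2036 in the basal gate and was not called (0.17 ± 0.24). Myocd, encoding the cofactor, read 14 and 0 against 140 and 107 and was called higher. Pcp4, a calmodulin regulator, read 192 and 173 in the luminal gate and 13 and 20 in the basal gate, and was lower by 2.94 on the log2 scale, with adjusted p = 0.061 at a pseudocount of 1. All 4 CD1 libraries were at 8 or below for Pcp4, so it passed the filter through the DNp63 luminal libraries alone. The direction of its difference was thus not independent of the filter. Of the other 21 contractile genes 20 were higher and 0 lower. No contractile gene had a called interaction in the main fit, and 1 had one with the replicate number as a block.

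Since SRF binds the CArG box, the promoters of the contractile genes were searched for it, together with 2 other motifs on both strands of the window from 250 bases before to 50 bases after each RefSeq start site. Of 32851 promoters in the table, 535 (1.63%) held a CArG box. Among contractile genes 2 of 20 promoters of 18 genes held one, those of Myl9 and Srf. Among genes higher in the basal gate the share was 1.71%, among lower genes 1.07% and among genes not called 1.14%. A match describes letters in this window and is not evidence of binding. The Myl9 promoter, chr2:156775214-156775513 on the plus strand of GRCm38.p6 (RefSeq), is shown because it holds a CArG box, marked in capitals. Myl9, a myosin light chain, read 75 and 79 in the luminal gate and 4873 and 5642 in the basal gate.
Myl9: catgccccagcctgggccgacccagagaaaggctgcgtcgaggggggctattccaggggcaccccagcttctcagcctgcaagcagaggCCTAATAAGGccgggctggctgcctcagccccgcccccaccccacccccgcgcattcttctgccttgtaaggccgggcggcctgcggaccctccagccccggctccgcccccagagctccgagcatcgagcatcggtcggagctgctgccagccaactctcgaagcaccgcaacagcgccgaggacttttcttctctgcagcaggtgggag
The third motif, a pair of p53-family core half-sites, was in 7.22% of all promoters. The share was 5.32% for higher genes, 5.95% for lower genes and 5% for genes not called. The motif was in 2 of 20 promoters of contractile genes, 1 of 21 of common luminal genes and 0 of 18 of basal identity genes.

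Basement membrane and hemidesmosome genes were largely higher in the basal gate. Of 26 genes 23 were higher and none was lower, with a median of 2.87. Col7a1, the collagen of anchoring fibrils, read 281 and 157 in the luminal libraries and 9610 and 13213 in the basal libraries, higher by 5.72 ± 0.34. Col17a1, a transmembrane collagen of hemidesmosomes, read 539 and 548 against 14730 and 17419. Col4a1 and Col4a2, which form the main collagen IV network, were higher by 4.68 and 5.09. Endothelial cells and pericytes also make collagen IV, and their marker sums rose in the same libraries.

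Lama3 and Lamb3, which encode laminin chains of the epithelial basement membrane, were both higher in the basal gate. Lama3 read 797 and 552 against 17972 and 16984, and Lamb3 803 and 846 against 7772 and 8388. The Lamb3 difference of 3.31 ± 0.13 was larger than that in CD1 mice (1.67), with an interaction of 1.63 ± 0.19 (limma adjusted p = 0.020). CD1 luminal libraries read 2050 and 1634 for Lamb3, above the DNp63 luminal pair, and CD1 basal libraries read 5837 and 5997, below the DNp63 basal pair. Plec, Lama5 and Itga3 were the list members not called.

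Genes linked with p63 in stratified epithelia split between the gates. Of 26 tested, 12 were higher and 9 lower, both shares above the 24.9% and 24.4% of all genes, and the median was 0.085. The higher ones held genes of cell adhesion to the basement membrane and of basal desmosomes. Fras1, an extracellular matrix protein that anchors epithelium, read 53 and 55 in the luminal gate and 1720 and 1876 in the basal gate (4.89 ± 0.20). Frem2, its partner, read 64 and 94 against 2968 and 4675. The desmosomal cadherin genes Dsc3 and Dsg3 read 9 and 8 and 14 and 20 in the luminal gate, and 350 and 547 and 220 and 194 in the basal gate. Dsg3 passed the filter through the DNp63 basal libraries alone, so the direction of its difference was not independent of the filter.

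Among the lower members were genes of suprabasal differentiation. Zfp750, a factor that drives terminal differentiation of keratinocytes, read 1044 and 1667 in the luminal gate and 51 and 78 in the basal gate, and fell by 4.19 on the log2 scale. Grhl3 and Ovol1, transcription factors of the epidermal barrier, fell by 2.65 and 2.36. Grhl3 passed the filter through the DNp63 luminal libraries alone, so the direction of its difference was not independent of the filter. Fras1 and Pkp1 had a called interaction. Fras1 had an interaction of 2.56 ± 0.29 (limma adjusted p = 0.016), and CD1 luminal libraries read 348 and 249 where DNp63 luminal libraries read 53 and 55. Pkp1, a desmosomal plaque protein, read 2601 and 2540 against 4944 and 4013 in DNp63 mice and 759 and 782 against 3416 and 3086 in CD1 mice, with an interaction of -1.23.

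Keratinocyte differentiation genes were sparse, and those present were mostly luminal. The filter passed 12 of 25, of which 7 were lower and 1 was higher. Sprr1a, a cornified envelope precursor, read 2445 and 1346 in the luminal gate and 173 and 34 in the basal gate. Krt6a, a keratin of hair follicles and wounds, read 3450 and 1495 against 215 and 136 and fell by 3.64 on the log2 scale. Both basal libraries lay below both luminal ones for these 2 genes, and the luminal replicates themselves differed about 2-fold. Klf4 was the higher member, at 8751 and 9825 against 16222 and 15152.

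**Figure D3:**
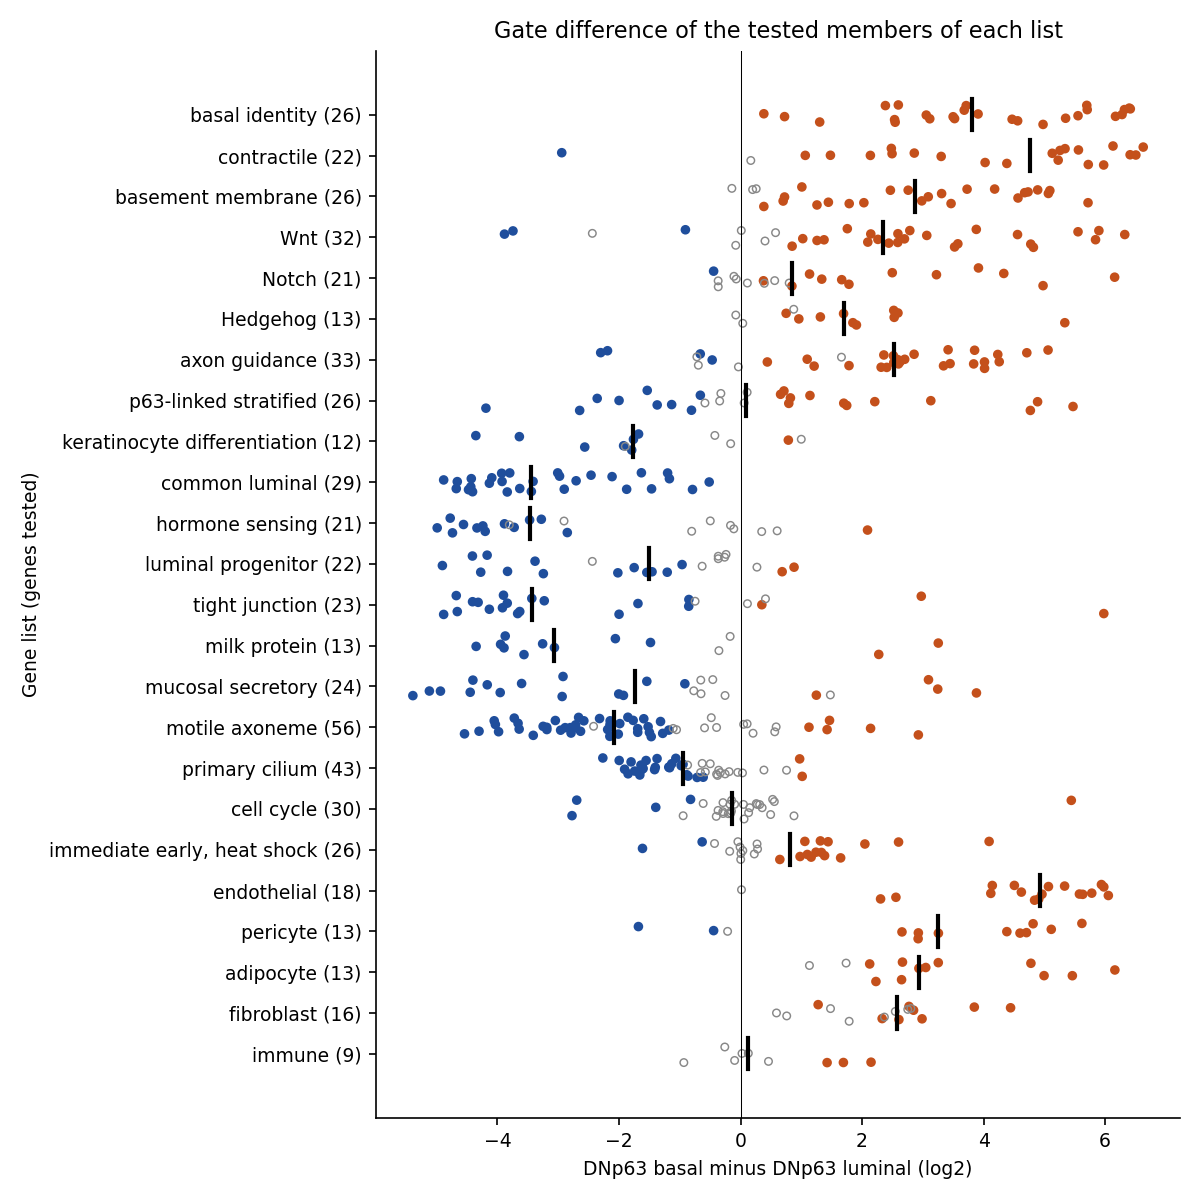
Each point is 1 tested gene of a list (the number tested is in brackets), placed by its difference between the gates of DNp63 mice in log2 units; filled points were called higher (orange) or lower (blue), open points were not called, and the black bar is the list median. The medians of the basal identity and contractile lists stood at 3.81 and 4.76, and that of the common luminal list at -3.44.

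Luminal genes were lower in the basal gate without exception among those listed. All 29 common luminal genes were called lower, with differences from -4.89 to -0.52 and a median of -3.44. Krt8 read 44514 and 43947 in the luminal libraries and 3688 and 4293 in the basal libraries, and Krt18 read 38642 and 40332 against 2104 and 2423. They fell by 3.44 and 4.09 on the log2 scale (SE 0.12 and 0.13), and no library of one gate reached the level of the other. Among protein-coding genes, mitochondrially encoded ones left out, Krt18, Krt19 and Krt8 were among the 6 most abundant transcripts of the luminal gate per kilobase of exon. They stood at 27479, 23242 and 22590 units per kilobase. Gata3, a luminal transcription factor, had the smallest difference, at 2013 and 2853 against 1598 and 1683.

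Tight junction genes were lower together. Of 23 tested, 17 were lower and 3 higher, with a median of -3.43. Cldn4 read 25924 and 21594 in the luminal gate and 784 and 769 in the basal gate, the lowest difference of the list (-4.89 ± 0.13, limma adjusted p = 1.5e-07). Cldn3, Cldn7 and Cldn8, other claudins of the luminal barrier, fell by 4.66, 4.41 and 4.68. Ocln, encoding occludin, read 4180 and 3890 against 232 and 204. On the higher side were Cldn5, the endothelial claudin, at 20 and 4 against 1223 and 1059, Cldn15, and the scaffold gene Tjp1 by 0.35.

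Hormone-sensing genes split into a group that was strongly luminal and a group that was not called. Of 21 tested, 12 were lower and 1 higher, beside 24.4% and 24.9% of all genes, with a median of -3.47. Esr1, the oestrogen receptor, read 10066 and 7262 in the luminal gate and 628 and 624 in the basal gate, and fell by 3.72. Pgr, the progesterone receptor, read 5590 and 11770 against 911 and 1315, and Prlr, the prolactin receptor, read 78980 and 83926 against 3279 and 3476. Foxa1, the factor that opens chromatin for the oestrogen receptor, read 8803 and 9841 against 262 and 402. The luminal libraries were above the basal ones in all 4 genes, by more than the 2-fold gap between the luminal replicates of Pgr. Areg, an oestrogen-induced growth factor, and Wnt4, a progesterone-induced ligand, fell by 4.24 and 3.88. Stat5a and Tbx3 were among the 8 members not called, and Ptgs1 was the member called higher.

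Luminal progenitor and alveolar genes included some with little gate difference. Of 22 tested, 13 were lower and 2 higher, beside 24.4% and 24.9% of all genes, with a median of -1.50. Elf5, the alveolar transcription factor, read 2518 and 3588 in the luminal gate and 119 and 175 in the basal gate, and Kit, the stem cell factor receptor, 5970 and 5955 against 359 and 450. Aldh1a3, an enzyme of retinoic acid synthesis used as a progenitor marker, fell by 4.41. Lcn2, encoding lipocalin, read 9469 and 7423 against 12509 and 7842 and was not called, and Runx1 was higher by 0.69. The other member called higher, Itga2, lost its call without DNp63 luminal replicate 2 (adjusted p = 0.18) or either DNp63 basal library (0.11 and 0.092).

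Most milk genes tested were lower in the basal gate. Of 17 listed 13 were tested, 9 lower and 2 higher, and the summed list was 33931 and 48548 in the luminal libraries and 22277 and 22708 in the basal libraries. Csn3, kappa casein, read 11060 and 17560 in the luminal libraries and 789 and 1054 in the basal ones, and Csn1s1 read 825 and 2172 against 30 and 102. Csn1s2a was listed at 28 and 24 in the luminal gate and at 0 in both basal libraries. In CD1 libraries Csn1s1 read 31653 and 32470 in the luminal and 3535 and 3462 in the basal gate. The 2 higher members were Lpl, a lipase also made by adipocytes, and Xdh, and the call of Lpl was lost without DNp63 luminal replicate 2 (adjusted p = 0.068) or DNp63 basal replicate 1 (0.084).

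The level of luminal transcripts that remained in the basal gate differed between the lists. In DNp63 mice the basal level of common luminal genes was a median 8.94% of the luminal level (2.56% to 67.4%), against 16.8% in CD1 mice, and 26 of 29 genes had the lower percentage in DNp63 mice. For hormone-sensing genes the medians were 7.23% and 19.4%, and for tight junction genes 7.42% and 15.9%. Milk genes had medians of 8.99% and 12.3%, with the lower percentage in DNp63 mice for 7 of 12 genes. Luminal progenitor genes had medians of 32.4% in DNp63 and 21.6% in CD1 mice. They were evenly split, since 11 of 22 genes had the lower percentage in DNp63 mice, and their median interaction was 0.052. The interaction test was passed by 4 common luminal genes, all in the negative direction. Krt18 had an interaction of -1.40 (limma adjusted p = 0.030), Krt19 of -1.55, Krt7 of -1.87 and Cldn4 of -1.78. Krt8 reached -0.92 (limma adjusted p = 0.074), which passed with the replicate number as a block (adjusted p = 0.020). Prlr was the hormone-sensing gene called, at -1.73. Whether luminal cells sorted into the basal gate add to the level there was not tested.

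Most of the secretory and mucosal defence genes tested were lower in the basal gate. Of 40 listed genes 24 were tested, with a median of -1.73. Of these, 14 were lower and 4 higher, beside 24.4% and 24.9% of all genes. Dmbt1 (chr7:131032053-131121630, plus strand), a scavenger receptor secreted by mucosal epithelia, read 26146 and 55841 in the luminal libraries and 342 and 2263 in the basal libraries. It fell by 5.39 on the log2 scale (SE 0.73, limma adjusted p = 0.00043), the lowest value of any gene chosen by the naming rule. Replicate 2 was the higher library in both gates, by 2-fold in the luminal gate and more in the basal gate, and the gates did not overlap. All 4 CD1 libraries were at 60 or below, at 43 and 60 in the luminal and 28 and 16 in the basal gate. The interaction of -4.37 was not called (limma adjusted p = 0.14) and was called with the replicate number as a block (adjusted p = 0.0026).

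Fcgbp (chr7:28071236-28120862, plus strand), an IgG-binding protein of mucus, read 20076 and 20467 in the luminal gate and 409 and 774 in the basal gate, a difference of -5.12 ± 0.77. CD1 luminal libraries read 35043 and 8302, so Fcgbp, unlike Dmbt1, was abundant in luminal cells of both strains. Muc4, a membrane mucin, read 2040 and 5314 against 81 and 117, and Aqp5, a water channel of secretory cells, 1771 and 4387 against 68 and 199. Not every defence gene was luminal. Slpi, a secreted protease inhibitor, read 297 and 122 in the luminal gate and 3874 and 2128 in the basal gate (3.88 ± 0.60). Chil1, a chitinase-like protein, read 1679 and 971 against 13192 and 10796, and Nos2 and Duox1 were the other members called higher.

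Many cilium genes were lower in the DNp63 basal gate than in the DNp63 luminal gate. Motile cilia are built on an axoneme of microtubules, dynein arms and radial spokes under the control of Foxj1 and RFX factors, and primary cilia share their transport machinery. Foxj1 (chr11:116330704-116335399, minus strand) read 2637 and 3314 in the DNp63 luminal libraries and 317 and 266 in the DNp63 basal libraries, and fell by 3.28 on the log2 scale (SE 0.25, limma adjusted p = 1.8e-05). In CD1 mice the order was the reverse, at 79 and 49 in the luminal gate and 692 and 504 in the basal gate, a rise of 3.08. The interaction was -6.36 ± 0.36 (limma adjusted p = 0.00059), and Foxj1 kept its call in every alternative run. Among 13 regulators tested of 19, 5 were lower and 3 higher, beside 24.4% and 24.9% of all genes. Rfx2 and Rfx3 fell by 1.77 and 1.43, whereas Trp73, the p63 relative that acts upstream of Foxj1 in airways, read 3 and 12 in the luminal gate and 296 and 455 in the basal gate. Ccno, a regulator of centriole amplification, read 20 and 8 against 152 and 199. At a minimum value of 200 the count of higher regulators was 1.

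Motile axoneme genes were mostly lower in the basal gate. The list held 70 genes, of which 56 were tested, 40 were lower and 5 higher, with a median of -2.08. Of the 56, 13 passed the filter through the DNp63 luminal libraries alone, so the direction of their difference was not independent of the filter. The other 43 comprised 27 lower and 5 higher genes, with a median of -1.77. Without DNp63 luminal replicate 1 or 2, 48 genes of the list were tested, with medians of -2.08 and -1.68. Without DNp63 basal replicate 1 or 2, 55 were tested, with medians of -2.04 and -2.23. The summed list was 22251 and 31233 in the luminal gate and 6220 and 6623 in the basal gate.

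Genes of dynein arms, the regulatory complex, radial spokes and the central apparatus were among the lower members. Dnah11, an outer arm dynein heavy chain, read 2265 and 3322 in the luminal libraries and 144 and 170 in the basal libraries, and fell by 4.03. Drc1, of the nexin-dynein regulatory complex, read 431 and 763 against 22 and 54, and Rsph4a, a radial spoke head protein, 306 and 666 against 17 and 44. Replicate 2 was the higher luminal library in each of the 3, and the gates did not overlap. Drc1 and Rsph4a passed the filter through the DNp63 luminal libraries alone, so the direction of their difference was not independent of the filter. Cfap54, of the central apparatus, read 1111 and 1429 against 321 and 397, a fall of 1.77, while in CD1 mice it read 4 and 15 in the luminal and 358 and 356 in the basal gate. Its interaction was -6.22 ± 0.46 (limma adjusted p = 0.0015). Opposite to the list, Dnah8 read 12 and 16 against 194 and 126 and Dnah1 89 and 126 against 523 and 450. These 2 genes were also higher in CD1 basal libraries, by 2.48 and 1.59.

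In CD1 mice the same axoneme list gave 15 higher and 4 lower genes, beside 24.2% and 20.1% of all genes. The basal level was a median 21.9% of the luminal level in DNp63 mice and 83.7% in CD1 mice, over 29 genes with a luminal mean of at least 40 in both strains. The interaction was negative for 52 of 56 genes, which include the 13 that passed through the DNp63 luminal libraries alone, and was called for 5 of them, Cfap54, Drc7, Dnah2, Cfap45 and Mns1, beside 0.26% of all genes in that direction. Foxj1 and Pifo were called in the list of other abundant multiciliated cell genes, where 7 of 10 tested genes were lower in the basal gate and none higher. The median difference of the 10 was -2.78. Without DNp63 luminal replicate 1 or 2, 7 genes were tested, with medians of -1.19 and -1.10. Of the 10 genes tested in the main fit, 3 passed the filter through the DNp63 luminal libraries alone, Pifo among them. The direction of their difference was thus not independent of the filter. Of the other 7, 4 were lower, with a median of -1.17. Defining genes of multiciliated cells were unevenly present, since 10 of 20 in that list did not pass the filter.

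**Figure D4:**
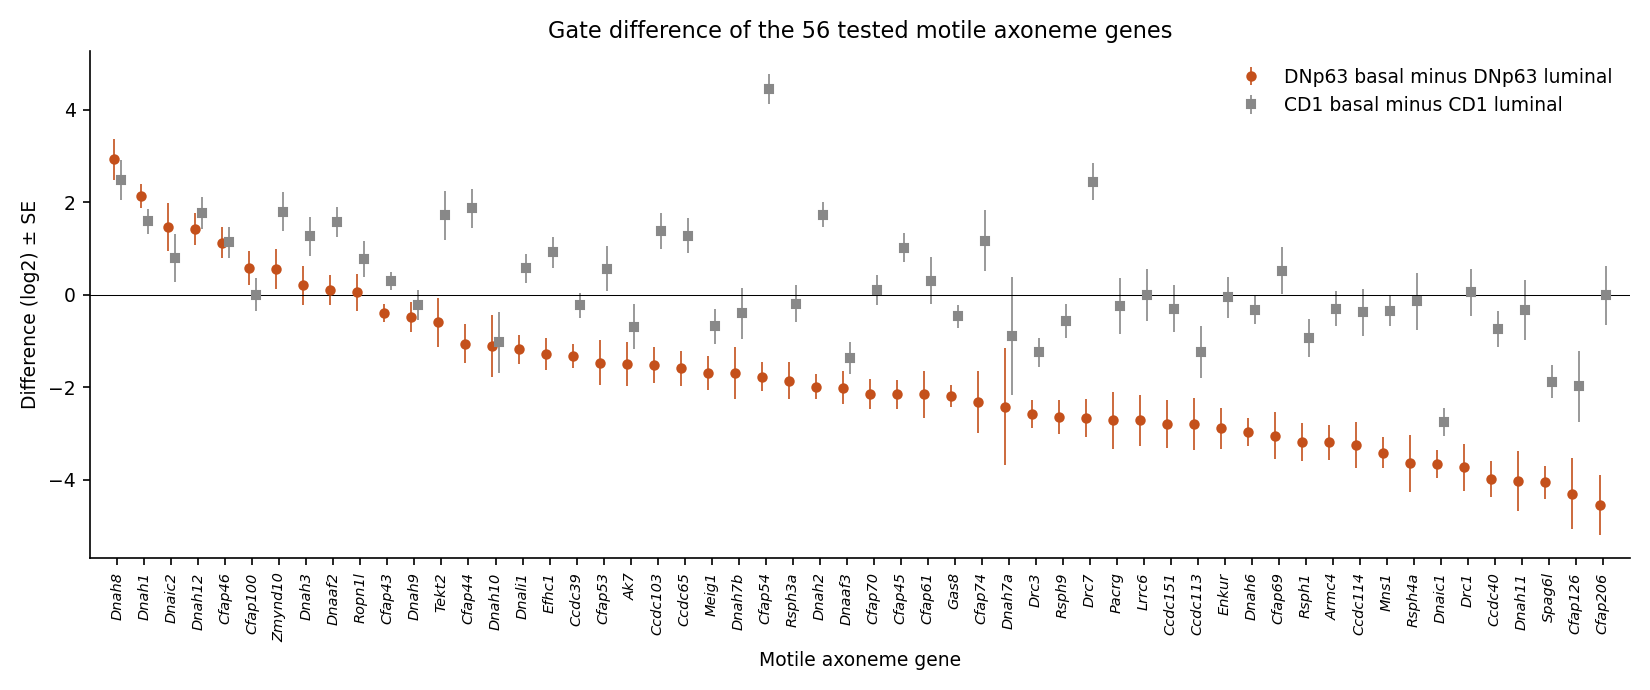
Points are the differences between gates (log2, basal minus luminal) of the 56 tested motile axoneme genes in DNp63 mice (orange circles) and CD1 mice (grey squares), with SEs, ordered by the DNp63 value. For 52 of the 56 genes the DNp63 value lay below the CD1 value; the 2 highest DNp63 values, of Dnah8 and Dnah1, were 2.93 and 2.14.

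Primary cilium and intraflagellar transport genes moved in the same direction but less far. Of 43 genes, all tested, 26 were lower and 2 higher, beside 24.4% and 24.9% of all genes, with a median of -0.95. The basal level was a median 49.8% of the luminal level against 96.7% in CD1 mice. Ift57, a subunit of the anterograde transport complex, read 891 and 1307 in the luminal gate and 258 and 295 in the basal gate, and its interaction was -2.57 ± 0.33 (limma adjusted p = 0.030). Kif3a, the motor of that transport, read 1344 and 1616 against 540 and 542. The gates did not overlap in either gene, and CD1 libraries read 163 to 321 for Ift57. The higher members were Ift172, at 1482 and 1425 against 2947 and 2824, and Arl3. Kif3a and Tmem67 were the other members with a called interaction, at -1.48 and -1.82.

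RFX factors bind the X-box, and its half-site GTTGCC was searched on both strands of the RefSeq promoters. It was found in 4111 of 32851 promoters (12.5%), in 26 of 66 promoters of axoneme genes (39.4%) and in 16 of 38 of primary cilium genes (42.1%). Among genes lower in the basal gate the share was 15.2%, among higher genes 11.8% and among genes not called 11.9%. Within the axoneme list, 10 of 37 promoters of lower genes (27%) and 11 of 17 promoters of other tested genes (64.7%) held it. For primary cilium genes the shares were 45.5% (10 of 22) and 37.5% (6 of 16). These matches are a description of letters and no test was made. Shown are promoters of Mns1, Ift57 and Kif3a, 3 of the cilium genes with a called interaction. Only promoters that hold the half-site were taken, so its presence in all 3 is no result. Mns1, a microtubule-associated protein of the axoneme, read 525 and 748 in the luminal and 43 and 59 in the basal gate. Capitals mark GTTGCC or its reverse complement GGCAAC. The 3 promoters lie on the plus strand of GRCm38.p6 (RefSeq) at chr9:72438279-72438578, chr16:49699044-49699343 and chr11:53567119-53567418.
Mns1: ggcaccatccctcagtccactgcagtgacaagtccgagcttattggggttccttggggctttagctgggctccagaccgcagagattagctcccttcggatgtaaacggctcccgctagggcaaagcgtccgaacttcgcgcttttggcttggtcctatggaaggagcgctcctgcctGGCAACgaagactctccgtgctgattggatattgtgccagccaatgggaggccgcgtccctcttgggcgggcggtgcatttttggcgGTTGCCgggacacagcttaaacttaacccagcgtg
Ift57: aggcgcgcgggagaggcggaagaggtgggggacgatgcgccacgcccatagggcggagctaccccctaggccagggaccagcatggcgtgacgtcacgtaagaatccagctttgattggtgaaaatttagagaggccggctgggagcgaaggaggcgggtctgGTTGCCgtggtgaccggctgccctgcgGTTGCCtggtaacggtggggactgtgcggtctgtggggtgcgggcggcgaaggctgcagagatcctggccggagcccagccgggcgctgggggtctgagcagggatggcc
Kif3a: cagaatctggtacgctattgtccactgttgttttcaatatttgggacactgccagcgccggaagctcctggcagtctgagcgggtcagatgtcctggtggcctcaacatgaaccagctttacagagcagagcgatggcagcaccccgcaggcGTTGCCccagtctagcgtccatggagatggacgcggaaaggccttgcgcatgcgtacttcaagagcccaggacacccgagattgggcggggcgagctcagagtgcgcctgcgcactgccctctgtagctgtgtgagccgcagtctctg

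Wnt pathway genes were mostly higher in the basal gate. Of 32 tested, 24 were higher and 3 lower, beside 24.9% and 24.4% of all genes, with a median of 2.35. Among ligands the direction was mixed: Wnt4 and Wnt7b were luminal, at 6006 and 4132 against 371 and 281 and at 897 and 670 against 55 and 44, while Wnt5a was higher by 1.02. Receptors were higher, with Fzd7 at 406 and 443 against 5163 and 7508 and Lgr4, an R-spondin receptor, at 1158 and 1123 against 6255 and 7291. Secreted and intracellular inhibitors had the largest differences. Wif1, which binds Wnt ligands, read 17 and 24 in the luminal gate and 1720 and 2877 in the basal gate (6.32 ± 0.40), and Nkd1 read 12 and 16 against 1223 and 1344. Axin2, a general target of the pathway, read 17 and 28 against 194 and 295. Lgr6 read 1849 and 1867 against 8619 and 11395 and was the member with a called interaction, of 1.73 ± 0.23, as CD1 mice had 3330 and 3512 against 6547 and 4911.

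Notch pathway ligands were higher in the basal gate while the receptors Notch1 and Notch2 were not called. Of 21 genes 12 were higher and 1 lower, beside 24.9% and 24.4% of all genes. Dll1 read 25 and 47 in the luminal gate and 2778 and 3201 in the basal gate, higher by 6.16 ± 0.32, and Jag2 read 125 and 102 against 3823 and 3646. Notch1 read 5301 and 6018 against 5863 and 4733, so its libraries overlapped. Dll4 and Notch4, known from endothelium, were higher by 3.92 and 4.33, beside the endothelial sums given above. The member called lower, Notch3, lost that call without DNp63 luminal replicate 1 (adjusted p = 0.27) or either DNp63 basal library (0.11 and 0.099).

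Hedgehog genes were higher in 10 of 13 cases and lower in none, beside 24.9% and 24.4% of all genes, with a median of 1.70. Gas1, a co-receptor, read 198 and 208 in the luminal gate and 6428 and 10844 in the basal gate (5.34 ± 0.50), and Boc, another co-receptor, 1344 and 1702 against 4856 and 6411. The targets Ptch1 and Gli1 were higher by 1.31 and 2.53, though Gli1 stood at no more than 119. Smo, the signal transducer, read 2312 and 1699 against 1771 and 1910 and was not called.

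ErbB family genes divided by receptor. Of 16 tested, 6 were higher and 8 lower, beside 24.9% and 24.4% of all genes. Egfr read 1394 and 1425 in the luminal gate and 6542 and 6566 in the basal gate, higher by 2.24 ± 0.19. Erbb3 read 8826 and 7270 against 687 and 697 and fell by 3.49, and Erbb2 and Erbb4 fell by 1.52 and 3.59. The ligands divided too: Nrg1, a ligand of ErbB3 and ErbB4, read 425 and 282 against 4911 and 3124, and Areg, a ligand of EGFR, 16940 and 17603 against 953 and 827.

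Axon guidance genes, many of which also act between epithelial cells and in vessels, were higher in 25 of 33 cases and lower in 4. The shares over all genes were 24.9% and 24.4%, and the list median was 2.52. Robo2, a Slit receptor, read 14 and 44 in the luminal gate and 1020 and 1195 in the basal gate, and Slit3 and Slit2 rose by 4.23 and 3.42. Nrp1 and Plxnd1, semaphorin receptors that are also endothelial, were higher by 4.26 and 4.71. Ntn1, encoding netrin-1, read 2284 and 2242 against 451 and 436, and Sema4d fell by 2.19. No gene of this list had a called interaction in the main fit. With the replicate number as a block, 2 were called in the positive and 1 in the negative direction.

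Proliferation genes did not separate the gates as a list. Of 30 cell cycle genes 1 was higher and 4 were lower, fewer than the 24.9% and 24.4% of all genes, and the lower count was 2 without DNp63 luminal replicate 2 or DNp63 basal replicate 1. Of the 30, 3 passed the filter through the DNp63 luminal libraries alone. The lower member Aurka, a mitotic kinase, lost its call without DNp63 luminal replicate 1 (adjusted p = 0.14), luminal replicate 2 (0.086) or basal replicate 1 (0.20). The higher count was 2 without either CD1 luminal library or DNp63 basal replicate 1, and 4 with the replicate number as a block. Mki67, a marker of cycling cells, read 1113 and 5392 in the luminal gate and 1396 and 6073 in the basal gate, and was not called (0.28 ± 0.80). Replicate 2 was the higher library in each gate, by more than 4-fold, and the 4 CD1 libraries read 224 to 923. The D-type cyclins changed in opposite directions. Ccnd1 read 3708 and 4027 against 557 and 537 and fell by 2.77 on the log2 scale, and Ccnd2 read 148 and 126 against 5876 and 6464 and rose by 5.44.

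Immediate early and heat shock genes, which respond to tissue dissociation, were higher in 14 of 26 cases and lower in 2. The shares over all genes were 24.9% and 24.4%. Fos read 23875 and 26904 in the luminal gate and 56990 and 60455 in the basal gate, and Egr1 28393 and 28645 against 58701 and 57699. Socs3 and Egr2 were higher by 2.60 and 4.09. Atf3, Fosb and Hspa1b were within 0.04 of no difference and were not called. In CD1 mice 12 of the 26 were higher and 4 lower, beside 24.2% and 20.1% of all genes. Whether sorting or dissociation differed between the gates was not tested.

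Outside the lists, the rule for named genes gave further extremes. Tenm2, a teneurin cell adhesion protein, had the highest difference, at 78 and 47 in the luminal gate and 7696 and 7929 in the basal gate (6.85 ± 0.22). Cxcl14, a chemokine, read 206 and 239 against 20736 and 20895, and Igfbp3, an insulin-like growth factor binding protein, 131 and 200 against 15127 and 17578. Adamts18 and Sorcs1 rose by 6.64 and 6.53. Gpihbp1 and Btnl9, at 37 and 12 against 3250 and 2249 and at 45 and 28 against 4506 and 3399, were also among the 10 highest, and Gpihbp1 is a protein of capillary endothelium. On the lower side stood Pik3cg and Pik3c2g, lipid kinases of the phosphoinositide 3-kinase family, which read 2637 and 2289 against 76 and 88 and 739 and 760 against 26 and 10. Cxcl15 fell by 4.99, and Htr4, a serotonin receptor, read 1319 and 392 against 30 and 10 and also passed the filter through the DNp63 luminal libraries alone.

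Across all genes the gate difference of DNp63 mice resembled that of CD1 mice, with which it shares no library. Pearson's r over 16900 genes was 0.899 and Spearman's rho 0.861, as a description, since genes are not independent replicates. In CD1 mice 7494 genes (44.3%) were called, 4098 (24.2%) higher and 3396 (20.1%) lower in the basal gate, and 6105 were called in the same direction in both strains, 73.4% of the DNp63 calls and 81.5% of the CD1 calls. In 31 genes the called directions were opposite. Of these, 23 were lower in the DNp63 and higher in the CD1 basal gate, and 8 of the 23 were in the cilium lists.

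The interaction was called for 58 genes (0.343%), 14 (0.0828%) in the positive and 44 (0.26%) in the negative direction, and 1781 genes (10.5%) had an unadjusted p under 0.05. Of the 44 negative ones, 10 were in the cilium lists and 0 of the 14 positive ones were. The count rested on each library: it was 7 and 6 without DNp63 luminal replicate 1 and 2, 5 and 4 without DNp63 basal replicate 1 and 2, 4 and 5 without CD1 basal replicate 1 and 2, and 163 and 95 without CD1 luminal replicate 1 and 2. Foxj1, Trp63, Cfap54 and Moxd1 were called in each of these and in all other alternatives. Moxd1, a monooxygenase-like protein, read 56 and 63 in the DNp63 luminal and 4691 and 4468 in the basal libraries, and 359 and 349 against 2738 and 2703 in CD1 mice. Its interaction of 3.21 ± 0.20 was the largest positive one among genes chosen by the rule. Itgb3, an integrin subunit, read 342 and 310 against 898 and 1460 in DNp63 mice and 1344 and 1271 against 765 and 831 in CD1 mice, so the direction was opposite in the 2 strains, and its interaction of 2.54 ± 0.31 (limma adjusted p = 0.024) lost its call in 6 alternatives.

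**Figure D5:**
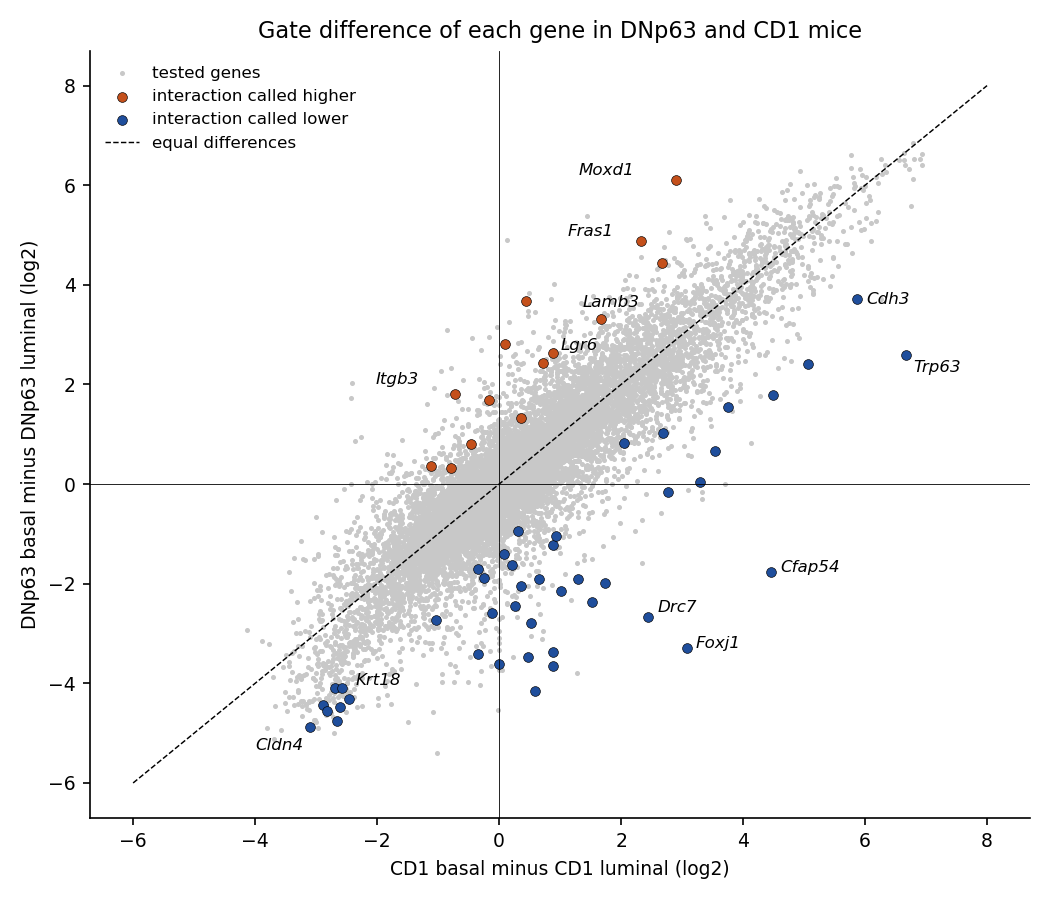
Each point is 1 of 16900 tested genes, with the CD1 gate difference on the horizontal axis and the DNp63 gate difference on the vertical axis, both in log2 units (basal minus luminal); coloured points are the 58 genes with a called interaction. Most genes lie along the dashed line of equal differences, whereas Foxj1, Cfap54 and Drc7 lie at the lower right, lower in the DNp63 and higher in the CD1 basal gate.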

How the data were processed

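RNA of sorted mouse mammary cells was sequenced in 8 bulk libraries. The deposited table is a score: read counts per gene that the authors scaled to 20000000 per library and rounded, as its column sums (20006569 to 20013862) show. STAR, HTSeq and the builds GRCm38 and mm10 are named in the submitters' processing notes; the sources used here give neither versions nor strand handling. Low values fell on steps of 2.78 to 4.83, which returned whole reads for 99.82% to 99.93% of values and depths of 4136986 to 7206700 reads.

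The test covered 16900 of 49671 genes, those that reached 40 in 2 or more libraries. After TMM scaling (trims of 30% and 5%) and a pseudocount of 8, limma 3.58.1 (R 4.3.3) was run on the log2 scale (4 group means, trended variance, 2-sided tests, Benjamini-Hochberg adjustment). The script was tested on simulated data. Tables were handled with Python 3.11.15, pandas 2.3.3 and numpy 2.4.6, and plots with matplotlib 3.10.9. Coordinates are those of GENCODE M21 on GRCm38, which held 49412 of the genes; promoters are from RefSeq (GRCm38.p6).

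The comparison and the 34 gene lists were chosen with earlier results of these data known. Genes named by rule were the lineage and gate markers, from each list at most 3 called genes with the greatest change in its main direction and at most 2 in the other, the 10 highest and 10 lowest differences without overlap between the gates and with a mean of at least 100 in the higher group, and the 8 highest and 8 lowest called interactions with a mean of at least 100 in a group. Other list members were named for their role after their values were seen. Among the gate surface genes 4 of 8 were higher and 3 lower. Alternatives covered scaling, pseudocount (1 and 32), the filter (none, and 200), voom on recovered reads, a replicate block, a fit to the DNp63 libraries alone and leaving out each library. Some list members are counted with their lists and not reported by name here.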

Additional observations from a re-analysis of the deposited data

Results flagged for a closer look

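The gate difference of DNp63 mice departed from that of CD1 mice in 58 genes by the interaction term of the limma fit, and each value below is the DNp63 difference minus the CD1 difference in log2 units. Members of the cilium lists had values of -6.36 for Foxj1, -6.22 for Cfap54, -5.11 for Drc7, -4.53 for Pifo and -2.57 for Ift57. Outside those lists the values were -4.73 for Iqub, -4.08 for Trp63, -3.94 for Kif27, -3.89 for Lhb, a gonadotropin subunit gene, and -2.09 for Pik3cg. Pifo, Iqub and Lhb passed the filter through the DNp63 luminal libraries alone, so the direction of their DNp63 difference was not independent of the filter. The filter does not set their CD1 difference, which was 1.52 for Lhb (limma adjusted p = 0.015). Pifo was listed at 0 in both CD1 luminal libraries, Iqub at 4 and 0 and Lhb at 8 and 4, so the sizes of these 3 values depend on the added 8. The luminal genes Cldn4 and Krt18 stood at -1.78 and -1.40.

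Among the positive values were 3.21 for Moxd1, 2.56 for Fras1, 2.54 for Itgb3, 1.86 for Cxcr4, 1.77 for Pcsk5, 1.75 for Tns3, 1.73 for Lgr6 and 1.63 for Lamb3. Cxcr4, a chemokine receptor, read 186 and 243 in the DNp63 luminal and 709 and 668 in the basal libraries, while CD1 libraries read 500 and 571 against 481 and 476. Pcsk5, a proprotein convertase, read 95 and 75 against 1754 and 2166, and 302 and 260 against 1763 and 1913 in CD1 mice. Tns3, a focal adhesion protein, read 844 and 1045 against 5357 and 6150.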

How the results depend on the processing

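The 8323 calls between DNp63 gates ranged from 6272 to 9655 over other settings and from 5820 to 8738 with 1 library left out. Left-out libraries gave 2320 to 4073 lower calls in place of 4122. Of 150 called genes named between gates, 138 kept their call in every setting run, 12 lost it in at least 1, and none reversed. The interaction count was less stable. It was 58 (14 positive, 44 negative), 116 (24 and 92) with a pseudocount of 32, 10 (1 and 9) without the filter, 22 (8 and 14) with voom on recovered reads, and 4 to 163 (1 to 86 and 3 to 77) with 1 library left out. The cause was not tested.

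With the replicate number as a block, 502 interactions (183 positive, 319 negative) were called, among them all 58, and 9338 genes between DNp63 gates, of which 8289 were shared. The labels do not say that a shared number marks a shared mouse. Same-numbered deviations correlated at 0.341 in CD1 and 0.267 in DNp63 mice over 16900 genes, with 2 pairs each. The block also called the interactions of Fcgbp (adjusted p = 0.017), Esr1 (0.013), Cd24a (0.0090) and Pdgfra (0.014).

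Beside those given with their results, calls lost without 1 DNp63 library were those of Mmp2 (adjusted p = 0.090, 0.073 and 0.088 without luminal replicate 2, basal replicate 1 and basal replicate 2), Jund (0.11 without luminal replicate 1), Usp18 (0.057 without basal replicate 1), Cd79a (0.052 without luminal replicate 2) and Cd3e (0.068 without basal replicate 1). Steps of up to 4.83 units per read limit genes near the filter.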

Other observations

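Lists of epithelial-mesenchymal transition, interferon response and p53 target genes had no called interaction in the main fit. With the replicate number as a block, 1 transition gene and 3 interferon genes were called in the positive direction. The block also called 5 p53 target genes in the negative direction. Of all genes 24.9% were higher and 24.4% lower in the DNp63 basal gate. Of 19 transition genes 10 were higher and 5 lower in the basal gate, with a median of 2.38. Vim, the intermediate filament of mesenchymal and basal cells, read 1410 and 1069 in the luminal and 15586 and 15466 in the basal libraries, and Zeb1, a repressor of epithelial genes, 136 and 83 against 1577 and 1233. Cdh1, encoding E-cadherin, read 20265 and 22623 against 4540 and 5159 and fell by 2.11 on the log2 scale. Endothelial cells and fibroblasts also express Vim and Zeb1, and their marker sums were higher in the same libraries.

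Of 24 interferon response genes 8 were higher and 2 lower, with a median of 0.37, and 6 were lower without DNp63 basal replicate 2. Ifit3 read 17 and 16 against 207 and 339, and Rsad2, an antiviral enzyme, 189 and 180 against 902 and 750. Of 24 p53 target genes 6 were higher and 8 lower, with a median of -0.30. Trp53inp1 read 31338 and 22541 against 2845 and 2742 and fell by 3.22, while Phlda3 was higher by 2.44 and Cdkn1a was not called, at 3353 and 2861 against 3895 and 2568.

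Of 10 Schwann cell and melanocyte genes tested of 13, 7 were higher and 2 lower; Ngfr read 14 and 16 against 405 and 252, and Sox10, also expressed in mammary epithelium, 1022 and 1104 against 2247 and 2843. Of 11 mitochondrially encoded genes 1 was lower, mt-Co2, and none was higher. The call of mt-Co2 was lost without DNp63 luminal replicate 1 (adjusted p = 0.24), basal replicate 1 (0.10) or basal replicate 2 (0.097).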
